A study of Drosophila melanogaster with 12 samples.

Results

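The uninduced control libraries of fat body and gut from adult female Drosophila melanogaster were set against each other by ATAC-seq, an assay in which the Tn5 transposase cuts and tags accessible DNA. The members are the nuclear regions with at least 1 read in at least 2 of the 3 control libraries of their own table. This left 4450 of the 6323 nuclear regions of the series, 2071 of 3427 labelled fat body and 2379 of 2896 labelled gut. All flies of the series carried the genotype S106_UASfoxo, that is, the S106 driver and a UAS transgene for foxo, the forkhead transcription factor repressed by insulin signalling. The control flies were RU486-, so they were not fed the drug that activates the driver, and they too carried both transgenes. Per the labels, the flies were adult females of no stated age, reared on 10% yeast and 5% sucrose and mated for 48 h. There were 3 libraries per tissue. A second set of 3 libraries per tissue, called the switched libraries here, came from flies of the same genotype kept on 200 uM RU486 for 21 days and then on control food for 7 days, and it is used below only to read the same regions again. The labels do not say whether they came from separate animals or pools. The p-values below therefore measure the spread between these libraries, which may be technical. S106 is known as an RU486-inducible GAL4 line active in adult fat body and gut, and no library here tests whether it acts without the drug.

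The fat body is the storage and secretory organ of the fly. It stores triglyceride in lipid droplets, releases lipoproteins and yolk proteins into the haemolymph, and produces antimicrobial peptides after infection. The gut is lined by enterocytes that secrete proteases and maltases and absorb nutrients, and GATAe is the GATA factor that maintains the identity of its endoderm. In ATAC-seq, promoters and enhancers of active genes are usually among the most accessible sites of a tissue, and satellite-rich heterochromatin is usually less accessible.

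Several marker lists went against the tissue labels. Labelled fat body, 3 of 17 gut identity genes (17.6%) and 4 of 40 digestive enzyme genes (10%) had a member region, against 5.3% of all protein-coding genes. Labelled gut, 0 of 17 and 1 of 40 (2.5%) had one, against 10.1% of all genes. These counts are small. All 17 gene lists described below lay above 5.3% labelled fat body, the fat body markers at 26.7%. Gut identity genes had a median span of 4635 bp and digestive enzyme genes of 958 bp, against 2161 bp over all genes. Lipid storage and oenocyte genes took larger shares of the arm counts in the libraries labelled gut, as detailed below. Of 15 fat body markers, 5 (33.3%) had a region labelled gut, the yolk protein genes Yp1 and Yp3 among them, against 10.1% of all genes. Labelled fat body, 4 (26.7%) had one, against 5.3%. By number of genes this list did not go against the labels, and its share of arm counts was higher labelled gut, as detailed below. Lsp1beta, Lsp2 and Apoltp had one labelled fat body only. The groups are therefore called the libraries labelled fat body and labelled gut throughout. Whether tissues were mixed, exchanged or dissected together was not tested, and in bulk tissue fewer cells of a type and less accessible DNA per cell cannot be told apart.

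The total counts were 1053117 to 1186153 in the libraries labelled fat body and 111244 to 654180 in those labelled gut. Most of these counts lay on the mitochondrial genome, and the nuclear counts were 129657 to 164720 and 34316 to 114182. Replicate 1 of the libraries labelled gut was the shallowest and stood apart. Across the regions of its table, its counts correlated with replicates 2 and 3 at a Spearman rho of 0.117 and 0.0747, against 0.578 between those 2 libraries and 0.4 to 0.466 among the libraries labelled fat body. Replicate 3 labelled gut was dominated by a single region of arm 2R, which held 33527 of its 113643 counts in member regions. Some of the results that rest on either library, or on the 2R region, are also given without it.

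The places of the reads differed between the tables. Of the regions labelled fat body, 1204 (58.1%) lay on the arms X, 2L, 2R, 3L, 3R and 4, 841 (40.6%) on unplaced or random scaffolds and 26 on the Y chromosome. Of those labelled gut, 2013 (84.6%) lay on the arms, 352 (14.8%) on scaffolds and 14 on the Y. Scaffolds hold mostly repeat-rich sequence that could not be placed on an arm. The regions were short, with a median of 121 bp labelled fat body and 152 bp labelled gut.

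Per library, scaffold regions took 38.3%, 34.1% and 33.4% of the nuclear counts labelled fat body and 25.6%, 3.1% and 3.01% of those labelled gut. All libraries labelled fat body were above all labelled gut, but replicate 1 labelled gut lay far nearer to them than its own 2 partners did. The means were 35.3% ± 2.66 and 10.6% ± 13 (SD, n = 3 each). The exact two-sided permutation test over libraries gave p = 0.1, which is the smallest value that 3 against 3 libraries allow, so no share could pass 0.05 here. Without replicate 1 labelled gut the difference went from 24.7 to 32.7 percentage points. In the switched libraries, counted on the same regions, the groups overlapped (exact permutation p = 0.2, n = 3 each).

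Counts at regions of the Y chromosome were 5.4%, 4.55% and 7.13% of the nuclear counts labelled fat body and 4.12%, 0.827% and 0.64% of those labelled gut. The groups did not overlap, and replicate 1 labelled gut was again the nearest to the other group. In the switched libraries the groups overlapped, at 5.76%, 4% and 4.05% labelled fat body and 5.24%, 0.934% and 1.53% labelled gut (exact permutation p = 0.3, n = 3 each). Females carry no Y chromosome, and the source of these counts was not tested. The gene with most of them was Ppr-Y, with 4687, 4209 and 8852 counts in 5 regions labelled fat body and 872, 489 and 484 in 2 regions labelled gut. The Y-linked dynein heavy chain gene kl-5, known from sperm, had 753, 374 and 890 counts labelled fat body and 128, 124 and 81 labelled gut.

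Gene ends showed the opposite order. A region counted as lying at a gene end when its midpoint was within 500 bp of either end of a protein-coding gene, since the annotation used here gives gene spans and no strand. Of the arm regions, 218 of 1204 (18.1%, exact 95% interval 16% to 20.4%) labelled fat body and 956 of 2013 (47.5%, 45.3% to 49.7%) labelled gut met this. The intervals cover counting error only. When the regions were moved by 5000 or 10000 bp, the share was 14.8% to 15.9% labelled fat body and 19.4% to 22.8% labelled gut, so the unmoved share labelled fat body was little above that of the moved regions.

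Per library, gene ends took 19.4%, 20.5% and 18.4% of the arm counts labelled fat body and 37.9%, 42.4% and 30% of those labelled gut. All 3 libraries labelled gut were higher, replicate 1 among them, with means of 19.5% ± 1.05 and 36.7% ± 6.28 (exact permutation p = 0.1, n = 3 each). Without the 2R region, the shares labelled gut were 40.2%, 44.7% and 43.2%. The switched libraries gave 15.4%, 16.6% and 24.8% against 37.5%, 37.5% and 40.3%, again without overlap. Regions with no gene within 1000 bp made up 25.5% of the arm regions labelled fat body and 8.99% of those labelled gut.

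Among the arms, the X took 31.1%, 32.5% and 27% of the arm counts labelled fat body and 20.3%, 18.8% and 14.8% labelled gut. Without the 2R region, the X shares labelled gut were 21.5%, 19.8% and 21.3%, still below the other group. A single intergenic X region, X:22432962-22433244, held 8287, 10250 and 7090 counts labelled fat body. Without it, an alternative added after the data were seen, the X shares were 22.4%, 22.1% and 21.1% labelled fat body and 18.1%, 18.5% and 14.7% labelled gut. The groups still did not overlap, and the mean difference was 4.75 percentage points (exact permutation p = 0.1, n = 3 each). The share of arm regions on the X was 21.8% and 20.5%. Arm 2R was higher labelled gut, at 22.9%, 24.8% and 45.1% against 17.8%, 15.3% and 20.5%. Without its region of highest count the mean difference of arm 2R went from -13.1 to -2.2 percentage points and the groups overlapped (exact permutation p = 0.2, n = 3 each). Shares of 2L, 3L and 3R overlapped between the groups. Without the 2R region, 3R still overlapped, but the shares of 2L were 13.8%, 12.6% and 14.9% labelled fat body and 16.4%, 17.5% and 17.2% labelled gut, and those of 3L were 12.8%, 14.4% and 14.9% against 17.8%, 16.5% and 16.8%. Both arms were then higher in all libraries labelled gut (exact permutation p = 0.1 for each, n = 3 each). The small arm 4 took 0.37%, 0.479% and 0.702% against 1.08%, 1.05% and 0.981%, also without overlap.

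**Figure D1:**
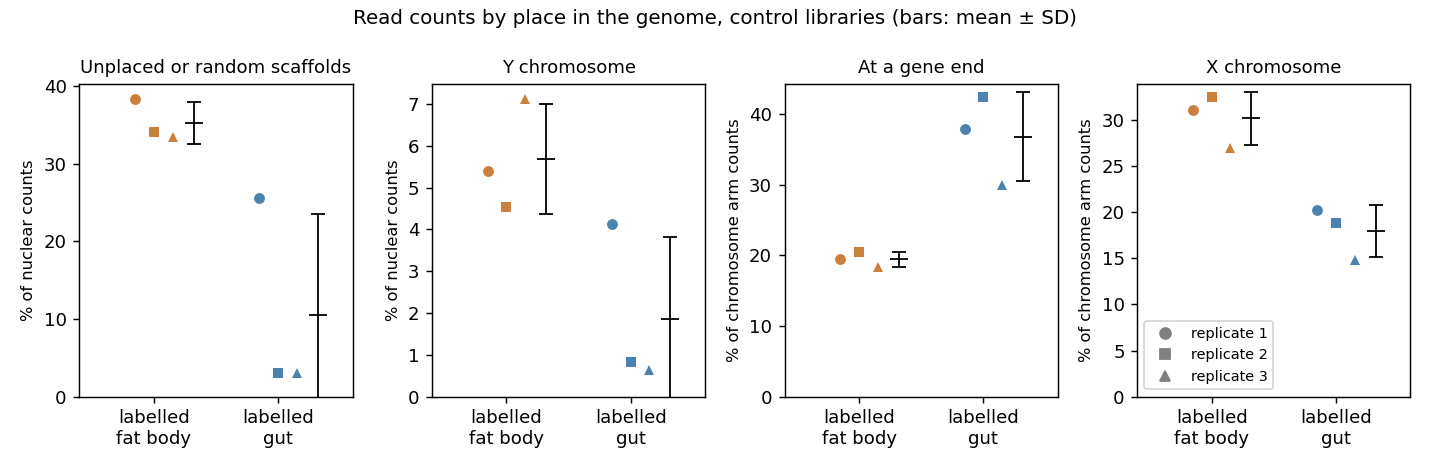
Share of read counts in each control library (y axes, percent of nuclear counts in the left pair of panels and of chromosome arm counts in the right pair), labelled fat body in orange and labelled gut in blue, with the mean ± SD of 3 libraries beside the points. Scaffold, Y and X shares were higher in all 3 libraries labelled fat body and gene-end shares in all 3 labelled gut, and replicate 1 labelled gut had a scaffold share of 25.6%.

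Few regions were common to both tables. Of the members labelled fat body, 589 (28.4%) overlapped a member of the other table by at least 1 bp, and of those labelled gut 565 (23.7%). On the arms the shares were 24.6% and 14.4%, and on scaffolds 33.5% and 75%. These overlapping regions held 64.5%, 64.9% and 56.4% of the counts labelled fat body and 47.9%, 25.5% and 45.6% of those labelled gut. Without the 2R region, also added after the data were seen, the shares labelled gut were 45.6%, 21.6% and 22.8%, so that in replicates 2 and 3 they were no higher than the share of regions. A region can be missing from a table because it was not called there, so absence is no measure of closed chromatin.

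Overlapping members were merged into 555 shared regions, 285 on the arms, 259 on scaffolds and 11 on the Y. On these, edgeR's quasi-likelihood test called none at a Benjamini-Hochberg adjusted p under 0.05 (0% of the 555). At an unadjusted p under 0.05, 25 were higher labelled fat body (4.5% of the 555) and 24 higher labelled gut (4.32%), and DESeq2 called 22 (3.96%), 7 higher labelled fat body and 15 higher labelled gut. The split at an unadjusted p under 0.05 moved with the scaling, to 35 and 7 with library totals over all member regions, and was 21 and 53 with DESeq2. The normalised counts of the groups did not overlap in 63 regions higher labelled fat body (11.4%) and in 31 higher labelled gut (5.59%). The common dispersion was 0.956, a wide spread between libraries of a group. With all 12 libraries and induction as a covariate, a fit added after the data were seen, 14 regions passed (2.52%), 7 in each direction, and without replicate 1 labelled gut 9 passed (1.62%). The median log2 fold change of all shared regions was 0.09, and it was 0.65 when libraries were scaled by all member regions instead.

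The smallest adjusted p belonged to the intergenic region 2R:5049531-5051294, 14264 bp from the nearest gene end. It had 214, 190 and 99 counts labelled fat body and 1351, 4825 and 33527 labelled gut. Every library labelled gut was higher, and replicate 3 held the most by far. The log2 fold change, fat body over gut, was -8.06 ± 1.49 (SE), with an adjusted p of 0.0704 in edgeR and of 3.28e-05 with all 12 libraries. The merged region spans 337 bp in the table labelled fat body and 1764 bp in the other, and per base of region the fold change was -5.67 on the log2 scale.

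A region of arm 3R at 3R:7474561-7475075 lay 780 bp outside CG1142, a gene without a name. It had 136, 181 and 104 counts labelled fat body and 66, 790 and 430 labelled gut. Raw counts of replicate 1 labelled gut lay below the other group, and after scaling the groups did not overlap, with a log2 fold change of -3.23 ± 0.88 (edgeR adjusted p = 0.201). The other 2 regions with the smallest p and more counts labelled gut were a scaffold region with 0, 3 and 2 against 13, 35 and 157 counts and 3L:24468969-24470928, far from any gene, with 1, 2 and 0 against 5, 7 and 57 counts. Neither passed in edgeR, with adjusted p of 0.127 and 0.298.

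In the other direction, the X region 22432962 to 22433244, with no gene within 1000 bp, had 8287, 10250 and 7090 counts labelled fat body and 624, 265 and 179 labelled gut. The groups stood well apart in raw counts, at a log2 fold change of 2.91 ± 0.78 (edgeR adjusted p = 0.201). The region 3R:4012072-4012197, also without a gene, had 3093, 3571 and 2429 against 145, 20 and 97 counts, a log2 fold change of 3.39 ± 0.84 (edgeR adjusted p = 0.168). Neither lies within 1000 bp of a protein-coding gene. A scaffold region with 1043, 1091 and 743 against 43, 22 and 7 counts had 3.66 ± 0.82 on the log2 scale (edgeR adjusted p = 0.127), and another with 335, 168 and 204 against 6, 2 and 3 counts had 4.25 ± 1.01 (edgeR adjusted p = 0.15).

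The direction of these differences was also read in the switched libraries, which share no sample with the controls. Of the 49 shared regions at an unadjusted p under 0.05 in the controls (8.83% of the 555), 41 (83.7%) had the same sign in the switched libraries, against 351 (63.2%) of all 555. Both sets were counted on the same regions, whose lengths differ between the tables. The part of region length in this agreement was not tested. The 2R region had 220, 489 and 87 counts in the switched libraries labelled fat body and 2065, 16268 and 7063 in those labelled gut, and its log2 fold change there was -6.69 ± 1.05. The X region had 14414, 10048 and 2566 against 241, 263 and 196.

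**Figure D2:**
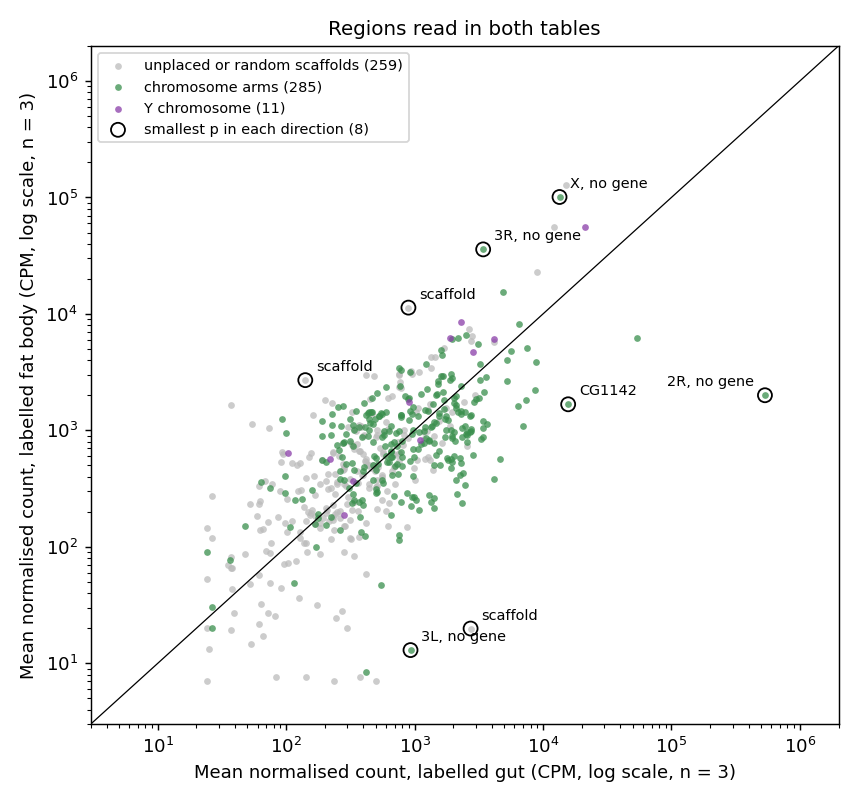
Mean normalised count of each of the 555 shared regions in the 3 control libraries labelled gut (x axis, CPM, log scale) and labelled fat body (y axis, CPM, log scale), coloured by place, with the diagonal marking equal levels and rings on the 8 regions of smallest p. CPM is scaled by TMM over the shared regions and can exceed the library total in replicate 3 labelled gut, whose factor was 0.466; the 2R region lies farthest below the diagonal and none of the regions passed the adjusted threshold.

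Joined by gene, the tables shared a minority of their genes. A member region lay in or within 1000 bp of 739 protein-coding genes labelled fat body (5.3% of 13945) and of 1409 labelled gut (10.1%), and 308 genes had one in both (2.21%). These 308 were 41.7% of the genes labelled fat body, where 10.1% of all genes had a region labelled gut, and 21.9% of those labelled gut, where 5.3% of all genes had one labelled fat body. Genes with a region in both were long, with a median span of 13643.5 bp against 2161 bp over all genes, and a long gene can be reached by different regions in the 2 tables.

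Counts summed per gene gave no call either (0% of 308, edgeR adjusted p under 0.05). At an unadjusted p under 0.05, 18 genes were higher labelled fat body (5.84%) and 28 higher labelled gut (9.09%). With region length as offset, that is per base of region, the split was 20 and 2. Groups did not overlap in 51 genes higher labelled fat body (16.6%) and 47 higher labelled gut (15.3%). DESeq2 called 31 (10.1%), 13 higher and 18 lower labelled fat body, the fit on all 12 libraries 26 (8.44%), and edgeR without replicate 1 labelled gut 5 (1.62%). The 4 genes with the smallest p in each direction are given as values that did not pass.

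DIP-lambda, which encodes an immunoglobulin-domain surface protein of the family that binds Dpr proteins, had 96, 125 and 248 counts in 4 regions labelled fat body and 1, 1 and 2 counts in 1 region labelled gut. The regions lay inside the gene, far from its ends, and did not overlap between the tables. The log2 fold change was 5.36 ± 1.15 (edgeR adjusted p = 0.186, and 0.00212 with all 12 libraries). Per base of region it was 3.67.

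Raf, the MAP kinase kinase kinase of the Ras pathway, had 198, 382 and 193 counts in 2 regions labelled fat body and 10, 5 and 5 in 1 overlapping region labelled gut. All libraries labelled fat body were higher, at 3.61 ± 0.96 on the log2 scale (edgeR adjusted p = 0.223). Psc, a Polycomb group subunit, had 211, 219 and 442 against 8, 55 and 14 counts at overlapping regions near a gene end, a log2 fold change of 2.37 ± 0.70 (edgeR adjusted p = 0.237). Whamy, an activator of actin assembly, had 251, 702 and 611 against 20, 116 and 29 counts, 2.13 ± 0.64 on the log2 scale (edgeR adjusted p = 0.237).

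Of the genes higher labelled gut, CG46467 had 53, 17 and 10 counts in 1 region labelled fat body and 97, 187 and 193 in 6 regions labelled gut. The sum was higher in every library labelled gut, at a log2 fold change of -3.81 ± 0.84 (edgeR adjusted p = 0.186), but with more and longer regions behind it, and per base it was -0.99. luna, which encodes a Krüppel-like zinc finger factor, had 14, 32 and 48 against 10, 229 and 251 counts in different regions of the gene. Its raw counts in replicate 1 labelled gut were as low as those of the other group, and its log2 fold change was -3.44 ± 0.93 (edgeR adjusted p = 0.223). CG1142 rests on the single 3R region above and had -2.55 ± 0.65 in gene sums (edgeR adjusted p = 0.223).

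Pino had 61, 92 and 117 counts labelled fat body and 67, 240 and 219 labelled gut, a log2 fold change of -2.19 ± 0.55 (edgeR adjusted p = 0.223). Its regions do not overlap between the tables, and per base of region the sign turned, at 0.50. Over all 308 genes the median log2 fold change was 0.04 on summed counts and 0.75 per base of region.

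**Figure D3:**
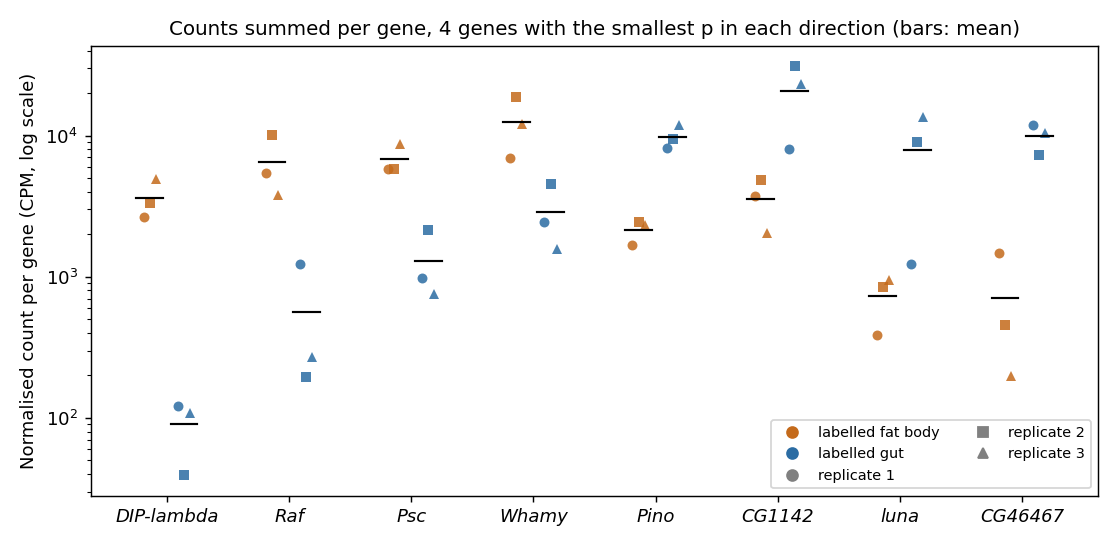
Normalised count per gene (y axis, CPM scaled by TMM over the gene sums, log scale) in each control library for the 4 genes of smallest p in each direction, labelled fat body in orange and labelled gut in blue, with bars at the mean of 3 libraries. In all 8 genes the groups do not overlap, and none passed the adjusted threshold.

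Most members were of 1 table only. Against every nuclear region of the other table, 1331 members labelled fat body (64.3%) and 1763 labelled gut (74.1%) had no overlap. The arm regions among them differed in kind. The 862 labelled fat body had a median length of 95 bp, 14.8% of them lay at a gene end and 24.4% had no gene within 1000 bp. The 1698 labelled gut had a median length of 141 bp, 51% lay at a gene end and 6.54% had no gene within 1000 bp.

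The 8 arm regions with the highest mean CPM (counts scaled to the library's total in member regions) that lie at a gene in the table labelled fat body only were none of them at a gene end. The highest lay inside Cdep, with 194, 397 and 155 counts and 1876.8 ± 1154.7 CPM (SD, n = 3), at 3R:4912381-4912517. Next came CG30440 with 192, 94 and 412 counts, MFS14 with 299, 192 and 156, and CG34353 with 119, 282 and 227. The spread between libraries was wide for most of these. The region in ctrip, which encodes a ubiquitin ligase of the circadian clock, was the steadiest, with 204, 155 and 251 counts and 1457.9 ± 188 CPM. shot, the spectraplakin that links actin and microtubules, had 319, 108 and 167 counts, and CG43658 and CG4301 completed the 8. In the switched libraries labelled fat body, CG30440 had 0, 0 and 76 counts, CG34353 0, 27 and 0, and CG43658 0, 166 and 43. The other regions of the 8 had reads in every switched library.

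Of the 8 such regions in the table labelled gut only, the highest lay inside CG45087 at 2R:18537112-18538494, with 66, 1031 and 1486 counts and 8573 ± 5824.1 CPM. Adh, the alcohol dehydrogenase that is abundant in adult fat body, had 41, 208 and 431 counts at 2L:14616178-14616862. for, the cGMP-dependent protein kinase of foraging behaviour, had 74, 252 and 233 counts and 2296.8 ± 281 CPM.

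Yp1, a yolk protein made by fat body and ovarian follicle cells, had 50, 267 and 205 counts at X:10053653-10054059, where the midpoint lay 45 bp from a gene end. CG13315 had 35, 253 and 288 counts, also at a gene end. Root, CG34039 and the transcription factor gene Sox102F on chromosome 4 were the others. In each of the 8 regions replicate 1 labelled gut had the fewest counts, and its depth was the lowest. The switched libraries labelled gut also had reads in all 8, with 1 count each at Yp1 and CG34039 in switched replicate 1.

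Genes with the most regions also differed, apart from EcR, the ecdysone receptor. In the table labelled fat body, Myo81F had 18 regions and Ppr-Y 5, and both lie in heterochromatin. EcR was among the genes that came next there, with 4. In the table labelled gut, EcR had 9 regions, Eip74EF 7, and CG46467 and Eip75B 6 each. A single region was all that 617 of the 739 and 1098 of the 1409 genes had.

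The genes of 17 lists were then counted by whether they had a member region, against the background of 5.3% of all genes labelled fat body and 10.1% labelled gut. Shares of arm counts at a list are given per library, and an exact permutation p of 0.1 was the smallest possible for all of them (adjusted over 17 lists, 0.243). The groups did not overlap in 3 lists higher labelled fat body (17.6% of 17) and in 4 higher labelled gut (23.5%). Among these, gut identity genes had no region labelled gut, so their shares of 0 there and the lack of overlap were fixed by which regions were called. Shares of digestive enzyme genes labelled gut and of oenocyte markers labelled fat body rested on 1 gene each. Marker lists of tissues are described first.

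Fat body markers had a region at 4 of 15 genes labelled fat body and at 5 of 15 labelled gut. They took 0.363%, 0.0431% and 0.0371% of the arm counts labelled fat body and 0.675%, 0.9% and 0.831% of those labelled gut, without overlap. In replicate 1 labelled gut most counts of the list came from Yp1, at 102, against 33 at apolpp, 12 at srp and 5 each at Yp3 and CCHa2. Whether the groups stay apart without Yp1 was not tested. The larval serum protein gene Lsp1beta had 103, 2 and 7 counts, the lipid transfer particle gene Apoltp 73, 4 and 10 and Lsp2 27, 27 and 9, all labelled fat body only. Most of the counts at the first 2 came from replicate 1. Yp1 had 102, 475 and 439 counts in 4 regions labelled gut. apolpp, the lipoprotein that carries lipids through the haemolymph, had 33, 153 and 215, and CCHa2, a peptide released on feeding, 5, 87 and 131, both labelled gut only. srp, the GATA factor that specifies fat body and blood cells, had 66, 0 and 9 labelled fat body and 12, 82 and 122 labelled gut.

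Lipid storage and synthesis genes stood out by number, with a region at 2 of 23 labelled fat body (8.7%) and at 15 of 23 labelled gut (65.2%). They were long, with a median span of 7760 bp against 2161 bp over all genes. Genes with a region labelled gut had a median span of 6328 bp, and the part of gene length in this number was not tested. Their share of arm counts was 0.247%, 0.221% and 0.217% against 1.13%, 1.76% and 1.22%, and the 3 libraries labelled gut were all higher. Hnf4, the nuclear receptor that drives fat oxidation, had 41, 275 and 253 counts in 3 regions, and the perilipins of lipid droplets Lsd-2 and Lsd-1 had 24, 224 and 166 and 40, 204 and 121. These 3 genes had no member region labelled fat body. sug, a zinc finger factor that responds to sugar, had 168, 169 and 136 labelled fat body and 28, 172 and 136 labelled gut. FASN1, the fatty acid synthase, had 39, 101 and 101 counts labelled gut, and ACC, which makes its substrate, 34, 72 and 85; these 2 were chosen after their values were seen.

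Digestive enzyme genes went the other way, with a region at 4 of 40 labelled fat body (10%) and at 1 of 40 labelled gut (2.5%). Their share was 0.195%, 0.12% and 0.176% against 0.0172%, 0.0086% and 0.0119%. The maltase genes Mal-A7 and Mal-A2 had 40, 45 and 94 and 62, 8 and 17 counts labelled fat body. The serine protease genes Jon99Ciii and Jon99Fi had 28, 39 and 24 and 14, 0 and 31. Labelled gut, Mal-A5 alone had a region, 250 bp outside the gene, with 4, 8 and 13 counts. All of these counts are low.

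Gut identity and enterocyte markers had a region at 3 of 17 labelled fat body and at 0 of 17 labelled gut. The share labelled fat body was 0.635%, 0.316% and 0.679% of the arm counts. GATAe had 174, 29 and 353 counts in 2 regions, and mesh, a smooth septate junction protein of the gut, 193, 174 and 99 in 2. Ptx1, a homeobox gene of the midgut, had 103, 39 and 189 counts at 3R:30912622-30912738, 16 bp outside the gene and with the midpoint 74 bp from a gene end. With only regions overlapping the gene counted, the list had 2 of 17 labelled fat body and 0 of 17 labelled gut. With every gene within 1000 bp of a region counted, it had 6 of 17 labelled fat body and still 0 of 17 labelled gut. This rule can count a region at several genes, so the shares of 5.3% and 10.1% over all genes do not apply to it.

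Oenocytes, the hydrocarbon-producing cells that lie against the abdominal fat body, had 1 of 8 markers read labelled fat body and 7 of 8 labelled gut. These genes had a median span of 5510.5 bp, against 2161 bp over all genes. The share was 0.111%, 0.0339% and 0% against 0.74%, 1.14% and 1.35%. Cyp4g1, the cytochrome that forms cuticular hydrocarbons, had 58, 331 and 539 counts in 4 regions labelled gut. Obp99c had 58, 161 and 195, at 1710.8 ± 45.8 CPM the steadiest of the list. Desat1, which is also in the lipid list, had 0, 100 and 183, and Adh is given above. svp, a nuclear receptor, was the single marker read labelled fat body, with 82, 26 and 0 counts.

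Haemocyte and basement membrane markers had a region at 2 of 12 and 3 of 12 genes, with shares of 0.0243%, 0% and 0.0201% labelled fat body and 0.129%, 0.312% and 0.173% labelled gut. Col4a1, a collagen IV chain made by haemocytes and fat body, had 10, 0 and 17 against 18, 186 and 114 counts in regions that do not overlap. Its gene sum gave -4.64 ± 1.30 on the log2 scale (edgeR adjusted p = 0.223). The other collagen IV chain vkg had 12, 51 and 44 counts and the scavenger receptor gene crq 0, 53 and 31, both labelled gut. The phagocytic receptor gene eater had 8, 0 and 2 labelled fat body.

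Muscle markers had a region at 2 of 17 and 1 of 17 genes, with 0.1%, 0.14% and 0.0806% against 0.0602%, 0.0279% and 0.00731% of the arm counts. The giant sarcomere gene sls carried most of this, with 74, 70 and 26 counts labelled fat body and 14, 26 and 8 labelled gut, and Mef2 had 0, 37 and 50 labelled fat body. Without replicate 2 labelled fat body, or with reads demanded in all 3 controls, the groups overlapped.

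Markers of 4 further sources had a region at 1 or 2 genes per table, and their groups overlapped. The Malpighian tubule groups did not overlap without replicate 1 or 3 labelled fat body. The ovary groups did not with reads demanded in all 3 controls, or without replicate 1 or 2 labelled gut. In those ovary settings no ovary marker had a region labelled gut. Among 11 stem and enteroendocrine markers, Sox100B had 2, 0 and 4 counts labelled fat body and 1, 0 and 1 labelled gut. Among 11 neuronal markers, the potassium channel gene Sh had 13, 34 and 119 labelled fat body and the synapsin gene Syn 15, 51 and 33 labelled gut. Among 7 Malpighian tubule markers, ct had 107, 150 and 72 labelled fat body and the chloride channel gene ClC-a 6, 60 and 89 labelled gut. Among 13 ovary markers, Vm26Ab and zpg had 12, 7 and 21 and 19, 1 and 4 labelled fat body, and the chorion gene Cp38 4, 63 and 0 labelled gut.

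**Figure D4:**
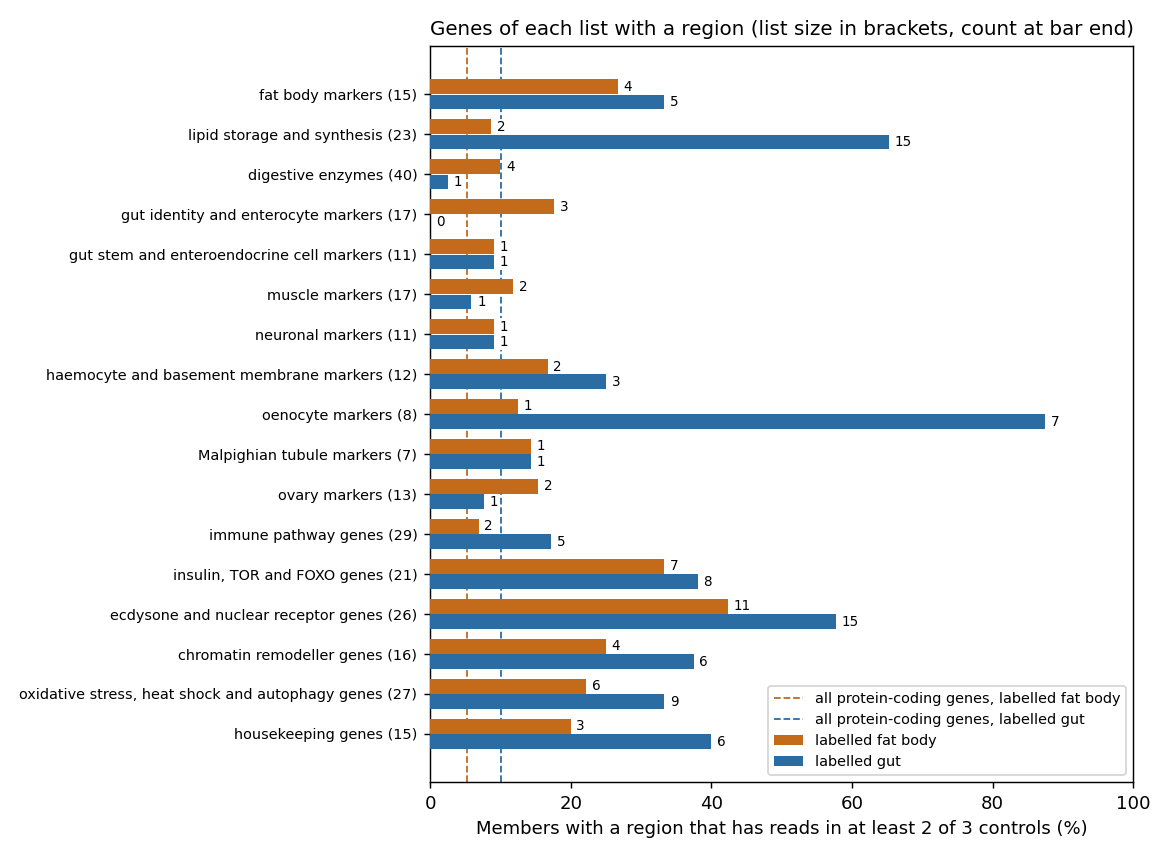
Share of the genes of each list that had a member region (x axis, percent of list members), labelled fat body in orange and labelled gut in blue, with the number of genes at the bar end and the share of all protein-coding genes as dashed lines at 5.3% and 10.1%. Lipid (15 of 23) and oenocyte (7 of 8) genes were read mostly in the table labelled gut, and gut identity genes (3 of 17 and 0 of 17) in the table labelled fat body.

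The groups overlapped in all 6 pathway and housekeeping lists. Only the oxidative stress, heat shock and autophagy list kept this overlap under every setting tried, and the exceptions of the other lists are given below. Of the 32 distinct genes of all 17 lists, tissue markers included, that were summed in both tables, edgeR called 0, 3 had an unadjusted p under 0.05 (9.38%, against 14.9% of all 308), and the median log2 fold change was -0.04 against 0.04 over all. DESeq2 and the other fits are summarised for all 308 genes above.

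The ecdysone pathway is the steroid hormone cascade in which the receptor EcR switches on early genes of the Eip class, and it had a region at 11 of 26 genes labelled fat body and at 15 of 26 labelled gut, with 10 in both. The share of arm counts was 2.1%, 1.55% and 1.04% against 1.51%, 2.02% and 1.47%. EcR had 477, 387 and 192 counts in 4 regions and 107, 309 and 269 in 9, a log2 fold change of -0.54 ± 0.56 on summed counts and 1.5 per base of region. Eip75B, a nuclear receptor, had 242, 112 and 256 against 32, 153 and 174 counts, and the ETS factor gene Eip74EF 155, 137 and 342 against 20, 116 and 122. Normalised counts of these 3 genes overlapped between the groups. The coactivator gene tai had 231, 102 and 15 counts labelled fat body, and Kr-h1, a juvenile hormone response gene, 43, 260 and 137 labelled gut against 100, 40 and 0. Of the 10 genes summed in both tables, 4 lay above 0 and 6 below on summed counts, with a median log2 fold change of -0.47. Per base of region, 235 of all 308 genes lay above 0, with a median of 0.75. All 10 ecdysone genes lay above 0 there, with a median of 1.21. edgeR called 0 of them, and the groups did not overlap in 3 of the 10, against 31.8% of the 308. These were Kr-h1 at -2.58 ± 1.32, and Eip93F at -2.17 ± 1.32 and Hr4 at 2.57 ± 1.4, the last 2 named after their values were seen. The shares of the list did not overlap without replicate 1 or 2 labelled fat body, with differences of -0.472 and -0.439 percentage points.

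Insulin, TOR and FOXO genes had a region at 7 of 21 genes labelled fat body and 8 of 21 labelled gut, with 4 in both. Their share was 0.794%, 0.272% and 0.574% against 0.206%, 0.671% and 0.274%. These groups overlap, but not without replicate 2 labelled gut, where the difference was 0.335 percentage points. InR, the insulin receptor and a known FOXO target, had 224, 86 and 348 counts in 2 regions labelled fat body and 0, 44 and 2 in 1 overlapping region labelled gut, at a gene end. The sums were higher in all libraries labelled fat body, with a log2 fold change of 2.98 ± 1.31, which did not pass in edgeR (adjusted p = 0.326), but one of the 2 regions has no counterpart labelled gut. At the site read in both tables, 3R:21619199-21619443, InR had 119, 76 and 169 against 0, 44 and 2 counts. There the groups overlapped after scaling, at 1.34 ± 1.4 on the log2 scale, and in the switched libraries the sign turned, at -1.43 ± 1.29. Downstream, the kinase gene Pdk1 had 7, 188 and 100 and sgg, the fly GSK3, 3, 151 and 69, both labelled gut only. Pi3K21B, the adaptor of the PI3 kinase, had 17, 96 and 49 labelled gut, and melt, a PH-domain regulator of insulin signalling, 149, 0 and 16 labelled fat body. S6k had 74, 0 and 37 against 12, 28 and 36. With reads demanded in all 3 controls, the list had 1 gene labelled fat body and 4 labelled gut.

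foxo itself, the gene of the transgene, had 64, 70 and 0 counts labelled fat body, at 3R:14056777-14056894 and 51 bp outside the gene span. Labelled gut it had 9, 53 and 16 counts at 3R:14062292-14062415, inside the gene and 5408 bp from an end. The regions are different places of the locus, so their sums do not compare the same site, and the log2 fold change of -0.16 ± 1.57 did not pass in edgeR (adjusted p = 0.974). Neither region tells endogenous from transgenic copies, and the control flies carry both.

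Oxidative stress, heat shock and autophagy genes had a region at 6 of 27 genes labelled fat body, all of which also had one labelled gut, where 9 of 27 did. The shares were 0.975%, 0.688% and 0.554% against 0.808%, 0.922% and 0.538%. Keap1, the repressor of cnc, had 186, 106 and 87 against 20, 31 and 23 counts, and cnc, the fly Nrf2, had 251, 27 and 99 against 36, 242 and 157. The autophagy gene Atg8a had 60, 245 and 117 against 25, 103 and 67. In gene sums the groups overlapped for all 6 genes, kay and Ets21C, both stress-responsive factors, included.

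Immune pathway genes had a region at 2 of 29 labelled fat body and 5 of 29 labelled gut. The NF-kappaB genes Rel and Dif had 36, 90 and 53 and 18, 117 and 37 counts, and their inhibitor cact 0, 51 and 42, all labelled gut only. Tl, the receptor upstream of Dif, had 92, 51 and 123 labelled fat body and 1, 28 and 36 labelled gut. The amidase gene PGRP-SC1a had 47, 0 and 24 labelled fat body. The shares of the list overlapped, at 0.0666% to 0.188% and 0.163% to 0.334%. They did not overlap without the 2R region (-0.155 percentage points) or without replicate 1 or 3 labelled fat body or replicate 3 labelled gut.

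Chromatin remodeller genes had a region at 4 of 16 labelled fat body and 6 of 16 labelled gut, with 2 in both. The shares of the list overlapped, but not without the 2R region (-0.159 percentage points) or without replicate 2 (-0.0883) or 3 (-0.178) labelled gut. osa, a subunit of the Brahma complex, had 49, 306 and 173 counts labelled gut, and Nurf-38 of the NURF complex 21, 18 and 51. The helicase gene kis had 54, 10 and 180 labelled fat body, and dom 23, 67 and 84 against 1, 33 and 29. Housekeeping genes had a region at 3 of 15 and 6 of 15, all 3 in both tables. RpL3 had 58, 487 and 65 against 0, 26 and 89 counts, Act5C 129, 57 and 0 against 4, 14 and 23, and Ubi-p63E, a polyubiquitin gene, 115, 74 and 152 against 0, 1 and 7. The sum at Ubi-p63E was higher in all libraries labelled fat body, at 4.16 ± 1.43 on the log2 scale, and did not pass in edgeR (adjusted p = 0.26; 0.00814 with all 12 libraries). Most of it came from a region read labelled fat body only. At the site read in both tables, 3L:3900358-3900704, Ubi-p63E had 37, 1 and 0 against 0, 1 and 7 counts, and the groups overlapped (0.47 ± 1.83 on the log2 scale). Shares of arm counts at housekeeping genes were 0.408%, 0.807% and 0.23% against 0.0688%, 0.133% and 0.248%, a difference of 0.331 percentage points. These groups overlap, but not with reads demanded in all 3 controls, with only regions overlapping the gene, or without replicate 1 or 3 labelled fat body or 2 or 3 labelled gut, where the difference was 0.362 to 0.492.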

How the data were processed

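Whole-number read counts were deposited by the authors, in 1 table per tissue laid out as featureCounts writes it. The submitters' processing notes name DESeq2, FastQC, MACS2, Trimmomatic and featureCounts, without versions or roles. Not given in the sources used here are the aligner, the genome build, pooling at peak calling, duplicate removal and any Tn5 shift. Duplicates kept in counts would widen the spread between libraries. Gene spans came from RefSeq Release 6, with no strand, exon or UTR; the match was checked by moving regions. A region was assigned to 1 protein-coding gene that it overlaps, or else the nearest within 1000 bp.

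Members, lists and tests were chosen with earlier results of these data known. Column names match sample titles. Members of both tables that overlap by 1 bp were merged, and counts summed per merged region or gene were fitted with edgeR 4.0.16 in R 4.3.3 (TMM, quasi-likelihood F test, fat body minus gut, Benjamini-Hochberg adjusted p under 0.05); the SE is the log2 fold change over the square root of F. DESeq2 1.42.0 was an alternative. The 2 tables hold regions called apart and of unlike length, so a fit with region length as offset was also run. Shares were compared by exact two-sided permutation over libraries (SciPy 1.17.1). The fit was tested on simulated data. Recovery of changed features was required there only at a spread between libraries far below that of these data. No pair of libraries agreed within sampling noise, so none was merged. Intervals are exact binomial at 95%. CPM of lists and single-table regions is scaled to the library's counts in member regions.

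Named were the 4 shared regions and genes with the smallest p in each direction, as none passed, the 8 single-table regions of highest mean CPM at a gene, up to 4 genes per list and table by mean CPM, and foxo; the genes of the Y, those with the most regions, FASN1 and ACC were chosen after their values were seen. Of 311 list entries 308 matched a gene; magro, Dl and nos did not. Planned motif shares were not run, as no genome sequence was used here.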

Additional observations from a re-analysis of the deposited data

How the results depend on the processing

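The number of shared regions called was 0 in the fit reported and also with filterByExpr, with a wider overlap (50% of the shorter region), with region length as offset, on arms alone and without the 2R region. It was 22 with DESeq2, 1 with library totals over the shared regions and no TMM, 1 with no rule on reads, 10 with reads in all 3 controls, 14 with all 12 libraries, 1 in the switched libraries alone, 2 where region lengths were within 1.5 times, and 0 to 9 when 1 control library was left out. The fits on all 12 libraries, on switched libraries alone, on like lengths and without the 2R region were added after the data were seen. Gene sums called were 31 with DESeq2, 20 with reads in all 3 controls, 26 with all 12 libraries and 0 to 5 without 1 library, against 0. The causes were not tested. The replicate numbers do not pair the libraries: the deviations of same-numbered libraries correlated at -0.0889, 0.107 and -0.0914. With the replicate block, 0 shared regions and 0 genes were called. With every gene within 1000 bp counted, 2134 genes had a region labelled gut.

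All 8 named shared regions kept their sign under every alternative that gave a value, and so did the 8 named genes except Pino, which was 0.50 with region length as offset. Of the differences in percentage points, fat body minus gut, 3R was -0.201 without the 2R region, and 2L 0.539 and 3L 0.827 without the X region of highest count; with 1 library left out, 3L ranged from -2.38 to 0.525 (0.281 without replicate 2 labelled gut) and 2L from -2.1 to 0.559. With reads in all 3 controls, ovary markers stood at 0.031, insulin genes at -0.00646 and stress genes at 0.0205, and stress genes at 0.0367 with regions overlapping the gene only. Leaving out 1 library gave -0.00174 to 0.00231 for stem cell markers, -0.0523 to 0.335 for insulin genes, -0.0249 to 0.0263 for ovary markers, -0.0171 to 0.0439 for neuronal markers, -0.472 to 0.276 for ecdysone genes and -0.114 to 0.128 for stress genes. Of the 7 lists whose groups do not overlap, 6 did not overlap under any setting tried, and muscle markers were the exception. No setting left out a single listed gene such as Yp1. Gut identity genes had no region labelled gut under any setting, so their lack of overlap was fixed by which regions were called. Depth limits replicate 1 labelled gut most, with a median of 8 counts per member region.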
